A study of Rattus norvegicus with 6 samples.

Results

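The Slc25 genes encode the mitochondrial carrier family, and their transcripts were followed in cultured neonatal rat ventricular myocytes treated with compound 915. The members are the genes of the deposited count table whose symbol is Slc25a followed by a number, taken once per Ensembl identifier, without the ADP/ATP carriers Slc25a4 and Slc25a5 and the acylcarnitine carrier Slc25a20. This gave 45 of 21648 genes, 43 of them protein-coding and 2 annotated as pseudogenes (Slc25a6 and Slc25a52). The rule used the symbol alone and no measured value, but it was set with earlier results of these data known.

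The study compared 3 libraries from cultures given 10 µM of 915 with 3 libraries from cultures given DMSO, the solvent, each for 72 h. Per the series text 915 activates the ERRs (estrogen-related receptors), nuclear receptors that drive genes of mitochondrial energy metabolism. All 6 libraries came from wild-type ventricular myocytes of pups at postnatal day 3, isolated with trypsin and collagenase, pre-plated to remove fibroblasts, plated with serum and bromodeoxyuridine, and moved to medium with insulin, transferrin and selenium before treatment. The labels call the libraries biological replicates without saying whether each came from its own cell isolation, so a p-value here reflects only how far these 3 and 3 libraries scatter, part of which may be technical.

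Carriers of this family sit mostly in the inner mitochondrial membrane, which is otherwise closed to charged metabolites. Each exchanges or co-transports a small set of substrates, so together they supply the matrix with phosphate, fuel acids, amino acids, nucleotides, cofactors and metals. Heart muscle is known for dense mitochondria and for a malate-aspartate shuttle, run by the oxoglutarate and aspartate-glutamate carriers, that brings cytosolic reducing power into the matrix.

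Transcripts of 19 carriers rose and those of 2 fell with 915, out of 39 that passed the filter on low counts. The median log2 fold change of the 39 was 0.26, against -0.01 over all 14253 genes tested. In edgeR's quasi-likelihood test with Benjamini-Hochberg adjustment, 49.8% of all genes tested passed an adjusted p of 0.05, 24.3% of all genes being higher and 25.5% lower, and among the tested carriers 48.7% were higher and 5.13% lower. Slc25a34, a carrier with no settled substrate, and Slc25a33, a pyrimidine nucleotide carrier, were the 2 members more than 2-fold higher (1.77% of all genes were). The citrate carrier Slc25a1 and the ATP-magnesium/phosphate carrier Slc25a24 were the 2 that fell. Each of the 8 classes apart from the pseudogenes and the carriers with no settled substrate held at least 1 higher member and at least 1 tested member that did not pass.

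Promoter sequences (250 bases before to 50 after the RefSeq start site, build GRCr8, which differs from the build of the counts) were found for 37 of the 45 members. The 37 held 14 of the 19 higher members, and not Slc25a26 or Slc25a30. Shown are the sequences of the 2 most raised members and of the 2 that fell, with matches to the searched motifs in capitals.
Slc25a34: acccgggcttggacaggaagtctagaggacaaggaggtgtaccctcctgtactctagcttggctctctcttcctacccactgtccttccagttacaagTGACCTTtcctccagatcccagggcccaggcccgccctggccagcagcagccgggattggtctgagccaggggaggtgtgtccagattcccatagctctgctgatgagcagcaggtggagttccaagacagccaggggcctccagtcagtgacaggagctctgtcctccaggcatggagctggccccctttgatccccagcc
Slc25a33: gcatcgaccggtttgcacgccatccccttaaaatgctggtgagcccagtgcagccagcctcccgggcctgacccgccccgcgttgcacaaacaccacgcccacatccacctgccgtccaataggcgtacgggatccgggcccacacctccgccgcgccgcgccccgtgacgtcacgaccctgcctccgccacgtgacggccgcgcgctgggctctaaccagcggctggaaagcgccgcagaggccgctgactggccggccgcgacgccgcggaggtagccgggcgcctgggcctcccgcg
Slc25a1: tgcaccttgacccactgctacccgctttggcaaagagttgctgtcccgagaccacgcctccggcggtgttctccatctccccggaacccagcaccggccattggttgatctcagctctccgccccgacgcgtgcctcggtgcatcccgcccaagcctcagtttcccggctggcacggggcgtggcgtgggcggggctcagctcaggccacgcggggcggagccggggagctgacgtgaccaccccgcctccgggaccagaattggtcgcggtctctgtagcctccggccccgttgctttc
Slc25a24: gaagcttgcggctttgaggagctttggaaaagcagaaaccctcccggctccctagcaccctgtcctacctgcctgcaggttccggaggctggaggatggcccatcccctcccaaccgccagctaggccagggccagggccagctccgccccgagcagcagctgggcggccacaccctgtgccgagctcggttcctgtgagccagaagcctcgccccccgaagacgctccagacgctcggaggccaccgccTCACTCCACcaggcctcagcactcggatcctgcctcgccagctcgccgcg
The windows are chr5:159219843-159220142 (minus strand) for Slc25a34, chr5:165502924-165503223 (minus strand) for Slc25a33, chr11:96559804-96560103 (plus strand) for Slc25a1 and chr2:199449175-199449474 (plus strand) for Slc25a24. Both strands were searched for TNAAGGTCA, the extended half-site bound by estrogen-related receptors, for its AAGGTCA core, for the core palindrome of nuclear respiratory factor 1 and for TCACNCCAC of the sterol-responsive SREBP factors. TNAAGGTCA was in 0 of the 37 windows and in 1.2% of all 33469 promoters, a share at which 37 windows would often hold none. AAGGTCA, which lies within it, was in 1 of the 37, that of Slc25a34, where the match begins 152 bases before the start site and reads TGACCTT because it lies on the other strand. It was in 4.61% of all promoters. TCACNCCAC was in 1 of the 37, that of Slc25a24, beginning at the start site, and in 1.12% of all promoters. The nuclear respiratory factor 1 palindrome was in 2 of the 37, those of Slc25a31 and Slc25a51, and in 4.25% of all promoters. A match is a string of letters and not a shown binding site, and sites outside these windows were not searched.

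**Figure D1:**
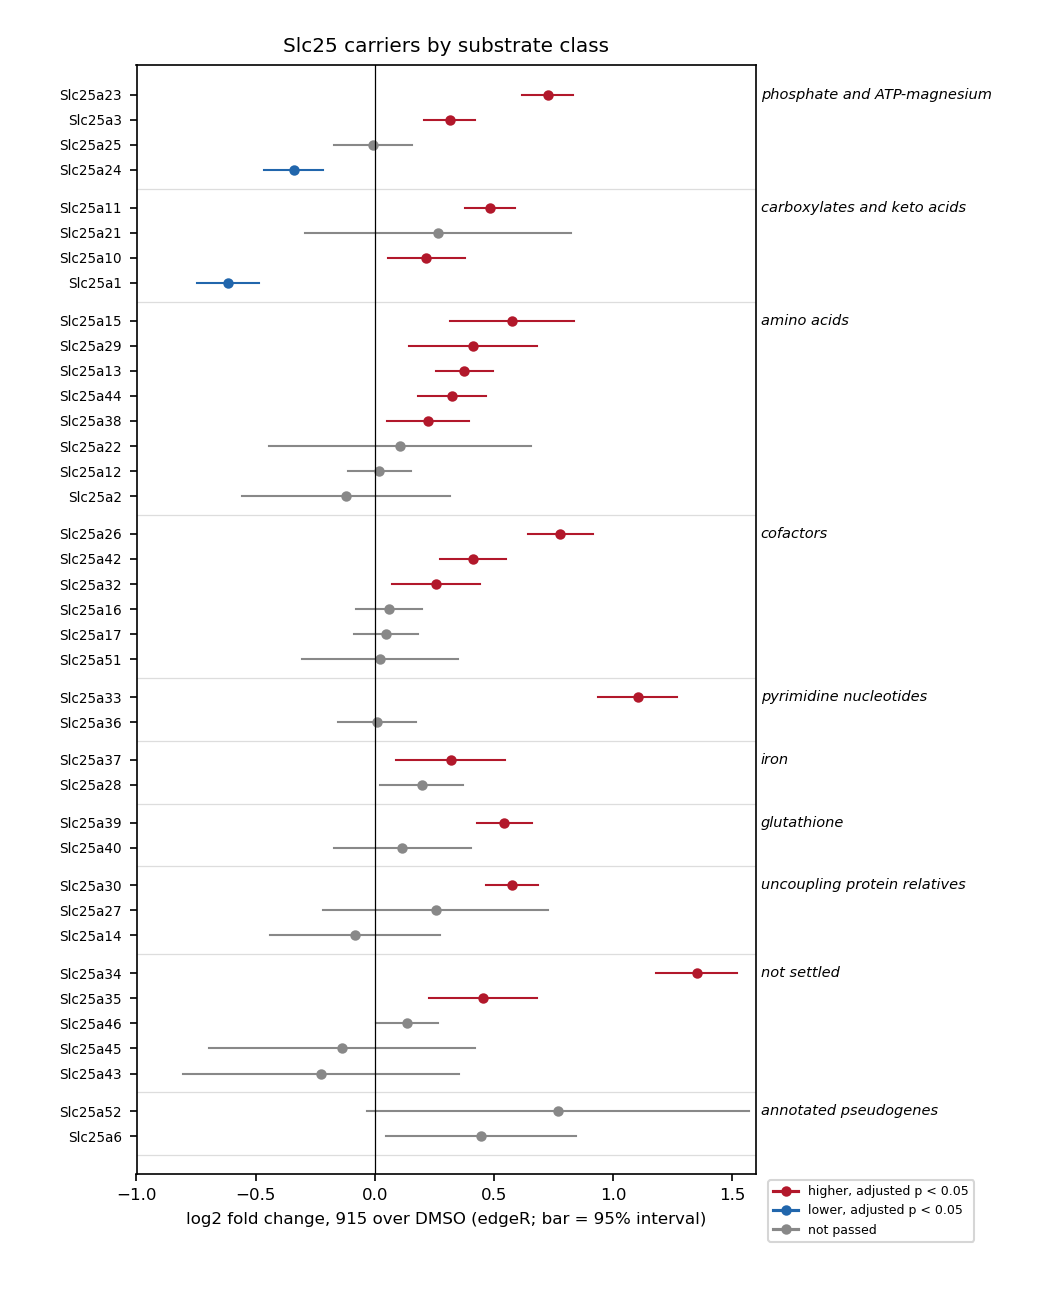
Log2 fold change (915 over DMSO, horizontal axis) of the tested Slc25 members, but for 1 that is not shown, with points for the estimate and bars for its 95% interval, grouped by substrate class from top to bottom. Red members rose, blue fell and grey did not pass an adjusted p of 0.05. The red points spread over every class but the annotated pseudogenes, and the blue points are Slc25a24 and Slc25a1.

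Levels are in CPM, read counts scaled to the authors' total for each library. They are not divided by transcript length, so they compare a gene between libraries and not one gene with another.

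Phosphate and ATP-magnesium carriers moved apart. The class holds the phosphate carrier Slc25a3, which brings in the phosphate for ATP synthesis. It also holds the carriers Slc25a23, Slc25a24, Slc25a25 and Slc25a41, which adjust the adenine nucleotide pool of the matrix by exchanging ATP-magnesium for phosphate. Slc25a3 (ENSRNOG00000008289) had 1094, 1043 and 1033 CPM in 915 libraries 1 to 3, against 857, 926 and 854 CPM in DMSO libraries 1 to 3. The groups did not overlap, and the log2 fold change was 0.31 ± 0.0492 (SE; edgeR adjusted p = 1.08e-04). Slc25a23 (ENSRNOG00000047781) had 150.5, 157 and 155 CPM with 915, against 92.6, 99.1 and 97.7 CPM with DMSO, all 915 libraries being higher (0.73 ± 0.0500, edgeR adjusted p = 3.06e-08). Slc25a24 (ENSRNOG00000020470) went the other way, at 35.6, 36.0 and 37.1 CPM with 915, against 48.2, 45.5 and 48.6 CPM with DMSO. All its 915 libraries were lower (-0.34 ± 0.0576, edgeR adjusted p = 2.19e-04). Slc25a25 overlapped between groups, at 22.9, 22.0 and 25.9 CPM with 915 and 25.5, 23.7 and 24.5 CPM with DMSO, and did not pass (-0.01, 95% interval -0.17 to 0.15, edgeR adjusted p = 0.943).
Slc25a41 and the testis ADP/ATP carrier Slc25a31 were too low to test. Slc25a41 had 0, 2 and 0 counts with 915 and 4, 2 and 2 counts with DMSO. Slc25a31 had 0 counts in every 915 library, which allows up to 0.0785, 0.0917 and 0.0738 CPM in libraries 1 to 3, and 0, 0 and 2 counts with DMSO.

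Among the carboxylate carriers the 2-oxoglutarate carrier rose, the citrate carrier fell and the dicarboxylate carrier passed only in part of the fits. Slc25a11 (ENSRNOG00000003815), which exchanges 2-oxoglutarate for malate in the malate-aspartate shuttle, had 199, 201 and 206 CPM with 915, against 144, 155 and 149 CPM with DMSO. Its groups were apart, and the log2 fold change was 0.48 ± 0.0490 (edgeR adjusted p = 1.71e-06). Slc25a1 (ENSRNOG00000038001), which carries citrate out of the matrix for cytosolic fatty acid and sterol synthesis, had 38.5, 38.0 and 38.5 CPM with 915, against 62.2, 63.6 and 56.6 CPM with DMSO. This was a 1.53-fold lower level (-0.62 ± 0.0601, edgeR adjusted p = 1.15e-06), with every 915 library below every DMSO library. Slc25a10, the dicarboxylate carrier for malate and succinate, was at 39.6, 32.1 and 37.0 CPM with 915, against 31.5, 32.9 and 32.4 CPM with DMSO. It passed in the full comparison (0.22 ± 0.0759, edgeR adjusted p = 0.0284) although 915 library 2 lay among the DMSO libraries. It did not pass without 915 library 1 or 3 (edgeR adjusted p = 0.154 and 0.0831) or without DMSO library 1 or 3 (0.0990 and 0.0593). Slc25a21, the 2-oxoadipate carrier of lysine breakdown, averaged 1.32 ± 0.191 CPM with 915 and 1.14 ± 0.223 CPM with DMSO (SD, n = 3 each) and did not pass.

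Of the 8 tested amino acid carriers 5 rose (3 without DMSO library 1) and 0 fell. Over all genes tested 24.3% were higher and 25.5% lower, and the class was not tested against these shares. Their median log2 fold change was 0.27. The aspartate-glutamate carriers Slc25a12 and Slc25a13 are the other carriers of the malate-aspartate shuttle, and Slc25a12 is known as the main form of heart. Slc25a13 (ENSRNOG00000009957) had 61.4, 62.2 and 58.1 CPM with 915, against 48.1, 49.7 and 47.0 CPM with DMSO. Slc25a12 (ENSRNOG00000022922) had 45.8, 43.5 and 40.1 CPM with 915, against 44.4, 43.0 and 44.6 CPM with DMSO. Slc25a13 rose with its groups apart (0.38 ± 0.0557, edgeR adjusted p = 6.58e-05), and Slc25a12 overlapped (0.02, 95% interval -0.11 to 0.15, edgeR adjusted p = 0.819).
Slc25a15, the ornithine carrier of the urea cycle, had 8.32, 7.67 and 6.91 CPM with 915, against 4.89, 5.47 and 5.54 CPM with DMSO, a 1.49-fold higher level (edgeR adjusted p = 1.28e-03). Slc25a44, which admits branched-chain amino acids for oxidation, had 41.0, 41.4 and 43.3 CPM with 915, against 32.6, 34.1 and 37.1 CPM with DMSO, 1.25-fold higher (edgeR adjusted p = 9.29e-04). In both genes every 915 library exceeded every DMSO library. Slc25a29, for basic amino acids, had 5.65, 5.72 and 6.35 CPM with 915, against 4.42, 4.72 and 4.66 CPM with DMSO (0.41 ± 0.125, edgeR adjusted p = 0.0139). Its call was lost without 915 library 3 or DMSO library 1 (edgeR adjusted p = 0.0518 and 0.0548). Slc25a38, which imports the glycine that starts heme synthesis, had 19.0, 18.8 and 17.0 CPM with 915, against 16.5, 16.8 and 15.2 CPM with DMSO (0.22 ± 0.0799, edgeR adjusted p = 0.0325). Its groups were close, and the call was lost without 915 library 1 or 2 (edgeR adjusted p = 0.108 and 0.0791) or DMSO library 1 or 3 (0.0643 and 0.126).
The glutamate carrier Slc25a22 averaged 1.73 ± 0.395 CPM with 915 and 1.67 ± 0.432 CPM with DMSO, and the ornithine carrier Slc25a2 averaged 1.89 ± 0.295 and 2.12 ± 0.0930 CPM with 915 and DMSO (SD, n = 3 each). Neither passed. The second glutamate carrier gene, Slc25a18, was too low to test, at 6, 6 and 15 counts with 915 and 8, 5 and 8 counts with DMSO.

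Cofactor carriers rose in 4 of 7 cases and fell in 0, with a median log2 fold change of 0.26. This class too was not tested against the 24.3% higher and 25.5% lower over all genes tested. Slc25a26 (ENSRNOG00000012831), which imports S-adenosylmethionine, the methyl donor for matrix RNA and protein methylation, had 39.4, 37.7 and 36.4 CPM with 915, against 22.4, 23.3 and 22.7 CPM with DMSO. The separation of the groups was wide, and the log2 fold change was 0.78 ± 0.0632 (edgeR adjusted p = 1.82e-07). Slc25a42, a coenzyme A carrier, had 65.0, 60.1 and 64.6 CPM with 915, against 45.8, 52.3 and 49.3 CPM with DMSO (0.41 ± 0.0644, edgeR adjusted p = 1.02e-04). Every 915 library lay above every DMSO library. Slc25a32, assigned to flavin and folate, had 15.9, 16.4 and 14.1 CPM with 915, against 13.1, 13.1 and 13.9 CPM with DMSO (0.26 ± 0.0860, edgeR adjusted p = 0.0221), and lost its call without 915 library 1 or 2 (0.0710 and 0.0754) or DMSO library 1 (0.0729).
Slc25a16, also linked to coenzyme A, overlapped at 32.2, 33.5 and 30.0 CPM with 915 and 32.8, 30.4 and 31.8 CPM with DMSO (0.06, 95% interval -0.08 to 0.20). Slc25a17, which sits in peroxisomes, averaged 32.3 ± 0.870 CPM with 915 and 32.4 ± 1.18 CPM with DMSO, and Slc25a51, the NAD carrier, averaged 3.27 ± 0.140 and 3.33 ± 0.232 CPM with 915 and DMSO (SD, n = 3 each). None of these passed. Slc25a51 is listed with 4 Entrez gene numbers and Slc25a36 with 2, so near-identical copies may share their reads.

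The pyrimidine nucleotide carriers, which supply the matrix with building blocks for mitochondrial DNA and RNA, differed in their calls. Slc25a33 (ENSRNOG00000016949) had 29.9, 27.8 and 30.1 CPM with 915, against 13.2, 14.1 and 15.1 CPM with DMSO, so that the lowest 915 library stood well above the highest DMSO library. It was 2.15-fold higher (log2 fold change 1.10 ± 0.0772, edgeR adjusted p = 3.60e-08). Slc25a36 (ENSRNOG00000013802) had 41.9, 46.3 and 40.2 CPM with 915, against 45.7, 38.9 and 47.1 CPM with DMSO. Its groups overlapped fully (0.01, 95% interval -0.15 to 0.17, edgeR adjusted p = 0.916).

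The mitoferrins, which bring iron into the matrix for iron-sulfur clusters and heme, had small changes near the threshold. Slc25a37 (mitoferrin 1, the erythroid form) had 11.9, 11.6 and 12.2 CPM with 915, against 9.54, 8.69 and 11.4 CPM with DMSO (0.32 ± 0.107, edgeR adjusted p = 0.0234). Its call was lost without 915 library 1 or 3 (edgeR adjusted p = 0.0584 and 0.0673) or DMSO library 1 or 2 (0.0801 and 0.0811). Slc25a28 (mitoferrin 2, the widely expressed form) had 39.5, 36.8 and 36.4 CPM with 915, against 30.7, 38.2 and 32.6 CPM with DMSO (0.20 ± 0.0811, edgeR adjusted p = 0.0566). DMSO library 2 lay among the 915 libraries, and without it the gene passed (0.30, edgeR adjusted p = 1.80e-03).
Of the glutathione carriers, which maintain the antioxidant pool of the matrix, Slc25a39 (ENSRNOG00000020994) rose, at 194, 183 and 208 CPM with 915, against 139, 142 and 135 CPM with DMSO (0.54 ± 0.0543, edgeR adjusted p = 1.45e-06). Slc25a40 overlapped, at 6.70, 9.02 and 6.35 CPM with 915 and 7.26, 6.74 and 6.96 CPM with DMSO (0.12, 95% interval -0.17 to 0.40).

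Among the relatives of the uncoupling proteins, whose transport roles are less clear, Slc25a30 (ENSRNOG00000001052) rose, at 85.7, 89.7 and 84.6 CPM with 915, against 59.6, 59.8 and 61.0 CPM with DMSO. The groups were apart (0.57 ± 0.0510, edgeR adjusted p = 4.40e-07). Slc25a14 overlapped, at 3.87, 3.15 and 3.25 CPM with 915 and 4.17, 3.08 and 4.02 CPM with DMSO (-0.08, 95% interval -0.44 to 0.27). Slc25a27 averaged 2.08 ± 0.139 and 1.79 ± 0.404 CPM with 915 and DMSO (SD, n = 3 each), and neither passed.
Slc25a34 and Slc25a35 have no settled substrate and are relatives of the oxaloacetate carrier of yeast. Slc25a34 (ENSRNOG00000021526) had 28.1, 27.0 and 29.2 CPM with 915, against 11.03, 12.2 and 10.9 CPM with DMSO. At 2.55-fold it had the highest log2 fold change of the 39 tested members (1.35 ± 0.0784, edgeR adjusted p = 5.26e-09). Slc25a35 had 8.37, 9.29 and 8.73 CPM with 915, against 6.35, 6.65 and 6.91 CPM with DMSO, also with no overlap (0.45 ± 0.106, edgeR adjusted p = 2.50e-03).
Slc25a46, an outer membrane protein linked to mitochondrial fusion, had 49.8, 49.2 and 46.0 CPM with 915, against 43.35, 45.15 and 48.0 CPM with DMSO, and did not pass (0.13, edgeR adjusted p = 0.0831). Nor did Slc25a43 and Slc25a45, with log2 fold changes of -0.23 and -0.14. Slc25a47, Slc25a48 and Slc25a54 had at most 6 counts in any library and were not tested. The annotated pseudogenes did not pass either. Slc25a6 had 2.62, 3.18 and 3.91 CPM with 915, against 2.33, 2.58 and 2.48 CPM with DMSO (0.45, edgeR adjusted p = 0.0612, or 0.0254 without 915 library 1), and its reads may be shared with its ADP/ATP carrier relatives. Slc25a52 averaged 0.781 ± 0.278 CPM with 915 and 0.468 ± 0.135 CPM with DMSO.

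**Figure D2:**
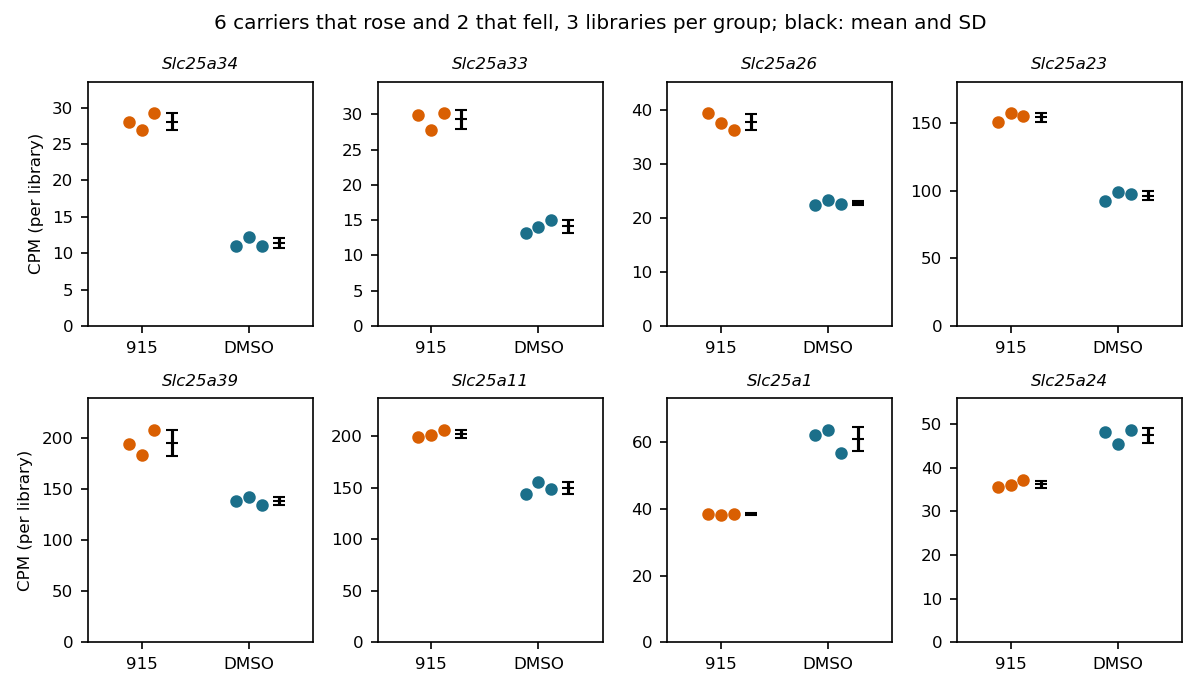
CPM in each library (vertical axis, from 0) of 6 carriers that rose and 2 that fell, with 915 libraries in orange on the left and DMSO libraries in blue on the right, and black marks for mean ± SD (n = 3 each). In each panel the 915 libraries lie wholly above or wholly below the DMSO libraries, as for Slc25a34 (27.0 to 29.2 against 10.9 to 12.2 CPM).

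Every 915 library lay above every DMSO library in CPM for 20 of the 39 tested members and below for 2, against 23.9% and 32.8% of all genes tested. The 20 include the annotated pseudogenes Slc25a6 and Slc25a52, which did not pass. Summed over the protein-coding members, the level was 2432 ± 35.4 CPM with 915 and 1990 ± 53.0 CPM with DMSO (SD, n = 3 each), a ratio of 1.22. Without Slc25a3 the sums were 1375 ± 8.93 and 1111 ± 15.6 CPM with 915 and DMSO, a ratio of 1.24. Of the 18 tested members that did not pass, the pseudogenes included, 13 had a log2 fold change above 0 and 5 below. With no scaling beyond the totals, Slc25a12, Slc25a17, Slc25a36 and Slc25a51 also lay below 0. The split was not compared with that of all genes that did not pass. In bulk libraries a higher or lower level can come from a changed share of a cell type or from changed RNA per cell. These cannot be told apart.

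Whether carriers with like substrates changed unequally was tested on the log2 ratio of their counts within each library, which needs no scaling between libraries. In 8 of 11 pairs the 915 and DMSO libraries did not overlap, and over all 101566878 pairs of tested genes 55% did not, so the count by itself is no result about related carriers. For each of these the two-sided exact permutation test gave 0.1, which is as low as 3 libraries a group can reach, or 0.1375 adjusted over the 11 pairs, so no pair could pass 0.05. The ratio of Slc25a33 to Slc25a36 was -0.49, -0.74 and -0.42 in 915 libraries 1 to 3 and -1.80, -1.46 and -1.64 in the DMSO libraries, a difference of 1.09. The ratio of Slc25a24 to Slc25a23 was -2.08, -2.13 and -2.06 with 915 and -0.94, -1.12 and -1.005 with DMSO, a difference of -1.07. Relative to Slc25a24, Slc25a23 was higher in every 915 library than in any DMSO library, and so it was relative to Slc25a25 (Slc25a25 over Slc25a23, difference -0.74).
The ratio of Slc25a34 to Slc25a35 differed by 0.90, at 1.74, 1.54 and 1.74 with 915 and 0.79, 0.88 and 0.66 with DMSO. That of the aspartate-glutamate carriers, Slc25a13 to Slc25a12, differed by 0.36, at 0.42, 0.52 and 0.53 with 915 and 0.11, 0.21 and 0.08 with DMSO. The remaining pairs without overlap were Slc25a42 to Slc25a16 (difference 0.35), Slc25a10 to Slc25a11 (-0.27) and Slc25a14 to Slc25a30 (-0.65). The other 3 ratios overlapped between groups, those of the mitoferrins Slc25a37 to Slc25a28 (0.12, exact permutation p = 0.8), of the glutathione carriers Slc25a39 to Slc25a40 (0.44, exact permutation p = 0.2) and of Slc25a29 to Slc25a15 (-0.17, exact permutation p = 0.4).

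**Figure D3:**
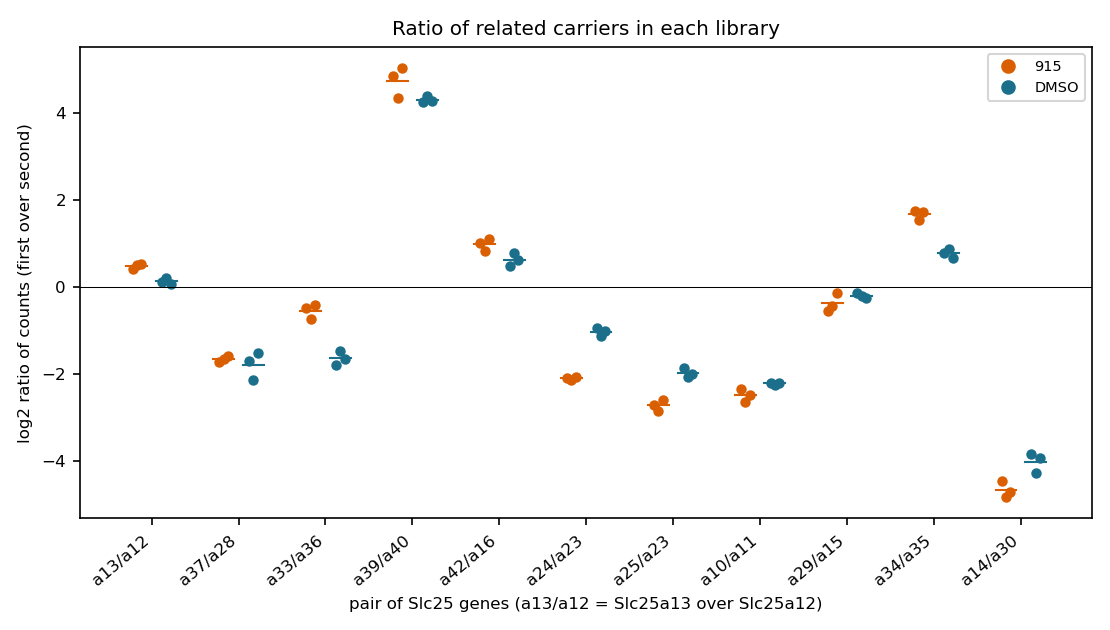
Log2 ratio of counts (vertical axis, first gene over second) for 11 pairs of related carriers (horizontal axis), with 915 libraries in orange on the left, DMSO libraries in blue on the right and lines at the group means (n = 3 each). The groups stand apart in 8 pairs, among the 11 most widely for Slc25a33 over Slc25a36 (mean -0.55 with 915 and -1.64 with DMSO) and Slc25a24 over Slc25a23 (-2.09 with 915 and -1.02 with DMSO).

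The carriers with an Slc25a symbol that were left out of the member list rose too. Slc25a4, Slc25a5 and Slc25a20 had log2 fold changes of 0.40, 0.63 and 0.64. Proteins that work with the carriers were read from the same fit. Of all genes tested 24.3% were higher and 25.5% lower, and the counts per list were not tested against these shares. All 4 measured enzymes of the malate-aspartate shuttle rose (median log2 fold change 0.49), among them the aspartate aminotransferase Got2 at 0.57 and the malate dehydrogenase Mdh1 at 0.53, beside Slc25a11 at 0.48 and Slc25a13 at 0.38. Slc25a12, the other aspartate-glutamate carrier of the shuttle, did not pass (0.02). Of 3 listed enzymes of the parallel glycerol phosphate shuttle 2 were found, Gpd1 not among them, and neither passed (Gpd1l 0.04 and Gpd2 -0.22). Of 8 rows for the TIM22 route, which inserts carriers into the inner membrane, 5 rose and 0 fell (median 0.34), with the small chaperone Timm10 at 0.67 and the receptor Tomm70 at 0.36. All 3 outer membrane channel genes rose, led by Vdac1 at 0.50.
Among 14 tested mitochondrial carriers without an Slc25a symbol, 5 rose and 2 fell (median 0.03). They include the uncoupling protein genes Ucp2 and Ucp3, which are of the same family as the Slc25 members. The pyruvate carrier subunits Mpc1 and Mpc2 rose by 1.04 and 0.42, and the transporter gene Abcb8 by 0.30. The members that fell were the uncoupling protein gene Ucp2 (-0.20) and Sfxn3 (-0.18), and 1, 1 and 0 fell without DMSO library 1, 915 library 2 and 915 library 1. Of 8 genes of the calcium uniporter, Mcur1 rose (0.53) and the pore gene Mcu fell (-0.19), a call lost without any one of the 915 libraries or without DMSO library 2 or 3, when 0 fell.
Genes that use or supply the carriers' substrates were read in 4 lists, with no test between them or against the 24.3% higher and 25.5% lower over all genes tested. For iron-sulfur cluster and heme synthesis 6 of 11 rows rose and 0 fell (median 0.33), with Glrx5 at 0.61, Iscu at 0.52 and Fech at 0.42. When 1 library was left out, 5 to 7 rose. For coenzyme A and NAD supply 7 of 12 rose and 1 fell (median 0.23), and 5 to 8 rose without 1 library. Nampt, the rate-limiting enzyme of NAD salvage, rose by 1.16 and the transhydrogenase Nnt by 0.55, while the pantothenate kinase Pank3 fell by 0.58. For thiamine, folate and S-adenosylmethionine supply 6 of 10 rose and 0 fell (median 0.22), with the thiamine transporter Slc19a2 at 0.62 and Mat2b, a subunit of the S-adenosylmethionine synthetase, at 0.33. In this list 4 to 6 rose without 1 library. For glutamate, glutamine and ornithine enzymes 0 of 6 rose and 3 fell (median -0.12), namely Gls2 (-0.59), Aldh18a1 (-0.57) and Oat (-0.26). Aldh18a1 lost its call without any 1 of the 6 libraries (edgeR adjusted p = 0.0523 to 0.121), when 2 fell.

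**Figure D4:**
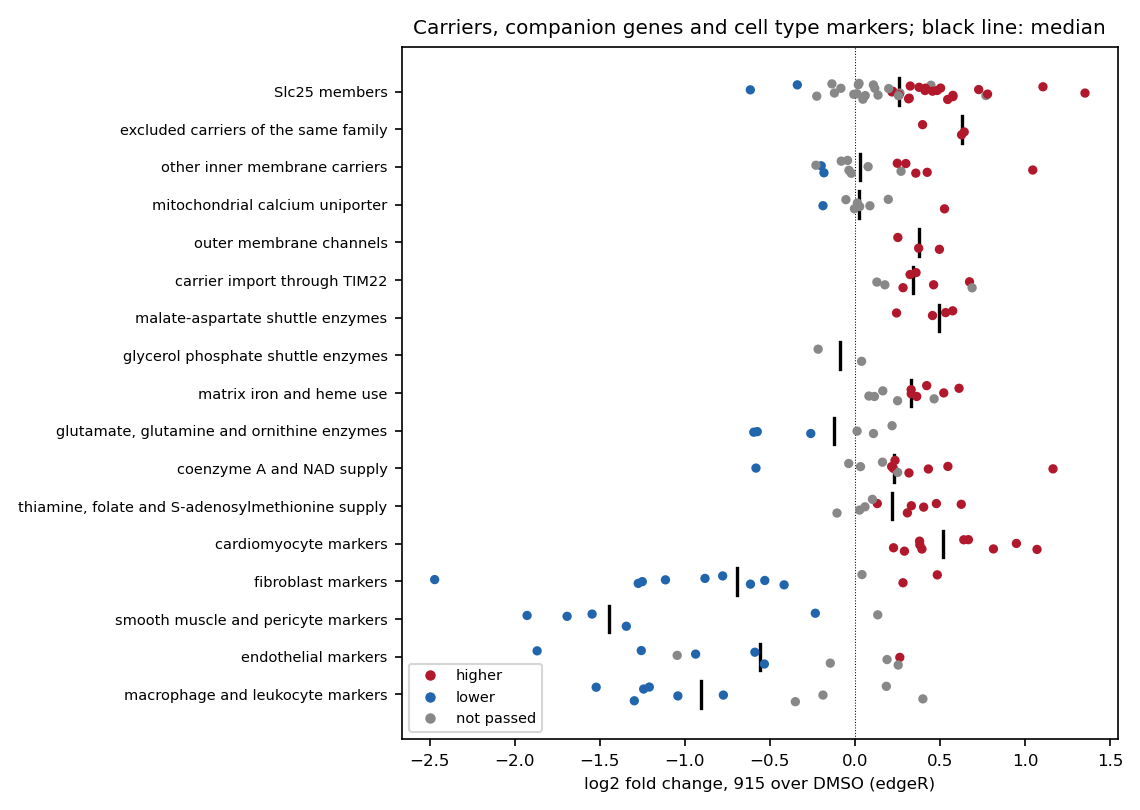
Log2 fold change (915 over DMSO, horizontal axis) of the tested Slc25 members, of companion gene lists and of cell type markers (rows), with 1 point a gene, red for higher, blue for lower and grey for not passed, and a black line at each median. The medians of the carriers (0.26), malate-aspartate shuttle enzymes (0.49) and cardiomyocyte markers (0.52) lie right of 0. That of the fibroblast markers (-0.70) lies left, and single points of the carriers and of the fibroblast markers lie on both sides.

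Cell type markers moved in the same libraries, where 24.3% of all genes tested were higher and 25.5% lower. All 10 cardiomyocyte markers, Tnnt2 and Myh6 among them, were abundant and rose (median log2 fold change 0.52), and their summed level was 28560 to 28880 CPM with 915 and 19700 to 20630 CPM with DMSO. Of 12 fibroblast markers 9 fell and 2 rose (median -0.70), with sums of 15640 to 16430 CPM with 915 and 29390 to 31170 CPM with DMSO. Of 6 smooth muscle and pericyte markers 5 fell and 0 rose (sums of 548 to 592 and 1620 to 1760 CPM with 915 and DMSO), and of 10 macrophage and leukocyte markers 6 fell and 0 rose (136 to 162 and 255 to 278 CPM). Of 10 endothelial markers 5 fell and 1 rose (64.9 to 66.2 and 78.3 to 81.9 CPM), and 3 fell without 915 library 3 or DMSO library 3 while 2 rose without DMSO library 2. None of the markers found was at 0 in all libraries. The part of cell composition in the changes of the carriers was not tested.

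Some members overlap another protein-coding gene of the table in the GRCr8 annotation, and the strand setting of the counting is not given in the sources used here. There were 14 such members, 5 of them called, and 49.8% of all genes tested were called. Slc25a35 overlaps Rangrf, which rose by 0.66 on the log2 scale, and Slc25a42 overlaps Tmem161a, which rose by 0.19. Slc25a26 overlaps Lrig1 (-0.06, edgeR adjusted p = 0.484), Slc25a11 overlaps the low-count gene Gp1ba, and Slc25a24 overlaps Slc25a54, which had 0 to 6 counts. Read sharing at these sites was not tested.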

How the data were processed

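RNA sequencing counts of 6 libraries were analysed, 3 from cultures given 915 and 3 given DMSO. STAR 2.5.1a, featureCounts 1.4.6-p5 of Subread and the build Rnor_6.0 are named for the authors' pipeline, per the submitters' processing notes. How strand and multiply mapped reads were handled is not given in the sources used here. The count table deposited by the authors held 22641 rows, of which 993 repeated an identifier with equal counts and were dropped. The authors' CPM table is the counts scaled by a fixed total for each library. The table held 30639244 to 38078137 counts per 915 library and 36799845 to 40010826 per DMSO library, and a gene at 0 counts may still lie at up to 3 counts, which is 0.0738 to 0.0917 and 0.0698 to 0.0759 CPM with 915 and DMSO, counting error only. Libraries of a group differed beyond sampling noise (chi-square over its degrees of freedom, 5.27 to 11).

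Counts were filtered with filterByExpr, scaled by TMM and fitted on group alone in edgeR 4.0.16 (R 4.3.3) with the quasi-likelihood test, two-sided, adjusted by Benjamini-Hochberg over 14253 genes at 0.05. The standard error is the log2 fold change divided by the root of F. The biological coefficient of variation was 6.84%. Pair ratios used a prior count of 0.5 and the exact permutation test (scipy 1.17.1). Alternatives were RLE scaling, no scaling, no low-count filter, DESeq2 1.42.0, a replicate block and leaving out each library. The procedure was also run on simulated counts with equally many raised and lowered genes. Far fewer genes changed in them than were called here, so they do not check the scaling for data like these.

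The members, the substrate classes and the 16 companion lists (141 entries, 130 rows found, some symbols in 2 rows) were chosen with earlier results of these data known. The promoter motifs were chosen after the values were seen. Values in every library are given by rule for members of the 11 pairs, for the 10 highest and lowest called changes at a mean of at least 1 CPM and for the most counted member of each class. Up to 3 companions per list with the smallest adjusted p are named, and others, such as Mcu and Pank3, were named after their values were seen. Of the members, 1 is counted in the totals and not reported by name here. Compound 332 was not analysed here.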

Additional observations from a re-analysis of the deposited data

How the results depend on the processing

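Of the 21 called members, 16 kept their direction and their call under all 11 alternatives, 14 higher and 2 lower. Slc25a10, Slc25a29, Slc25a32, Slc25a37 and Slc25a38 kept their direction and lost the call under 2 to 6 alternatives. The cause was not tested, beyond the fewer libraries where one was left out. Members higher numbered 19 with RLE scaling, 15 with no scaling beyond the totals, 20 with no low-count filter, 19 in DESeq2 and 16 with the replicate block, and 14 to 19 when 1 library was left out, with 2 lower each time. Over all genes, 2939 to 3496 were higher and 3105 to 3551 lower when 1 library was left out.

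Higher carboxylate carriers numbered 1 with no scaling and with the replicate block, and 1 to 2 without 1 library. Higher iron carriers numbered 0 with no scaling, 2 with no low-count filter, and 0 to 1 without 1 library. Higher amino acid carriers ranged 3 to 5 and higher pseudogenes 0 to 1 without 1 library. Lower uniporter genes numbered 0 with no low-count filter, the replicate block or DESeq2, and 0 to 1 without 1 library. Without 1 library, lower carriers with no Slc25a symbol numbered 0 to 2, and endothelial markers 1 to 2 higher and 3 to 5 lower. With no scaling, Slc25a36, Slc25a17, Slc25a12 and Slc25a51, which were not called, had log2 fold changes of -0.046, -0.011, -0.038 and -0.033, and Slc25a25 had 3.06e-04 in DESeq2. Without 1 library the sign also turned in uncalled members, whose ranges were -0.024 to 0.068 for Slc25a12, -0.19 to 0.0061 for Slc25a2, -0.032 to 0.35 for Slc25a22, -0.082 to 0.041 for Slc25a25, -0.062 to 0.066 for Slc25a36, -0.049 to 0.21 for Slc25a40, -0.33 to 0.064 for Slc25a45 and -0.018 to 0.082 for Slc25a51. The ratio of Slc25a37 to Slc25a28 ranged from -0.057 to 0.26.

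Replicate numbers recur in both groups with no statement of what they share, and the deviations of same-numbered libraries correlated at -0.03, -0.11 and -0.09, so the numbers were not taken as pairs. The replicate block moved the higher members to 16, as above. Depth limits the 6 untested members, none with more than 15 counts in a library.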
